A study of Mus musculus with 12 samples.

Results

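The interferon regulatory factor (IRF) genes were described here across 12 microarrays of activated mouse CD4+ T cells, the helper class of T lymphocytes. Members were taken by gene symbol, as the probe sets whose platform annotation names Irf1, Irf2, Irf3, Irf4, Irf5, Irf7, Irf8 or Irf9. All 8 genes were found, with 9 probe sets among the 24922 of the array and 8 of the 19752 genes tested. Every sample came from male C57BL/6 mice, 6 weeks of age, whose spleens gave CD4+ T cells by negative selection. The cells were then stimulated with CD3/CD28 beads for 48 h. IL-12, a cytokine that acts through the kinases Jak2 and Tyk2 and the transcription factor Stat4 and drives Th1 cells, was added at 100 U/ml for 2 h in 5 samples and for 8 h in 4 samples. A further 2 samples stayed without IL-12 for 2 h, and 1 sample is labelled as baseline with no IL-12 and no culture time. There was no untreated sample at 8 h, so for every value of the 8 h group the effects of IL-12 and of the longer culture cannot be told apart. Whether the samples of a group are separate mice, pools of mice or separate cultures is not stated in the labels, and p-values therefore cover the spread between these samples alone, which may be technical.

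IRF proteins share a DNA-binding domain that recognises GAAA-type sequences, and most of them are controlled both by the amount of their mRNA and by modification of the protein. Irf3, Irf5 and Irf7 are made as latent proteins and are activated by phosphorylation downstream of sensors of nucleic acids and of Toll-like receptors, while Irf9 is the DNA-binding subunit of the ISGF3 complex that carries the type I interferon signal. Irf1 and Irf2 bind the same sites, the first mainly as an activator and the second mainly as a repressor. Irf4 and Irf8 bind weakly alone and act with partners such as Batf and Jun or Spi1. In T cells, Irf4 is induced by the antigen receptor and is needed for effector differentiation, and Irf1 is a target of Stat4 and is required in several ways for Th1 responses.

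The titles number the samples. IL-12 arrays carry the numbers 2 to 4 (5 arrays) or 5 and 6 (4 arrays), the untreated arrays 7 and 8, and the baseline array 5. No label explains the numbers, and they are called a run of numbers here (2 to 4 against 5 to 8). The run moved with many genes: 24.3% of all genes differed between the runs, so each comparison was fitted with a run term. Changes of members from 2 h to 8 h are also given within runs. The untreated arrays lie in numbers 5 to 8 alone. A fitted difference from untreated cells therefore takes the run difference as equal in every group. Where the change from 2 h to 8 h differed between the runs, as for Irf4, this does not hold. In bulk samples such as these, fewer cells of a type and less RNA per cell cannot be told apart. All 9 measured CD4 T cell markers lay above the array median on all 12 arrays, and their mean log2 intensity was 11.65 to 11.85. Of the markers of other cells, 7 of 13 for B cells, 10 of 14 for macrophages and monocytes, 7 of 15 for dendritic cells and 5 of 7 for NK cells lay below the array median on every array. Above it on every array lay 2 for B cells, 3 for macrophages and monocytes, 7 for dendritic cells and 1 for NK cells. Of 2 CD8 T cell markers, Cd8b1 lay above the median on all 12 arrays and Cd8a below it on all. An array gives no true zero. The mean of the macrophage and monocyte markers was 6.50 to 6.61 on arrays numbered 2 to 4, 6.80 to 7.03 on IL-12 and untreated arrays numbered 5 to 8, and 6.68 on the baseline array.

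The bases just before the start sites of 4 members are shown because these genes had the smallest adjusted p from 2 h to 8 h of IL-12 (Irf8, Irf4, Irf1) or carry the most motif matches (Irf2). The sequences are RefSeq's, build GRCm38.p6, plus strand and 5' to 3', and each is the 250 bases that end just before the first annotated start site. Capitals mark matches to a GAS (TTCNNNGAA, the site of STAT dimers), an ISRE (GAAA, any 2 bases, GAAA, the site of IRF proteins and ISGF3) or the NF-kappaB site, all searched on both strands.
Irf8, chr8:120736108-120736357: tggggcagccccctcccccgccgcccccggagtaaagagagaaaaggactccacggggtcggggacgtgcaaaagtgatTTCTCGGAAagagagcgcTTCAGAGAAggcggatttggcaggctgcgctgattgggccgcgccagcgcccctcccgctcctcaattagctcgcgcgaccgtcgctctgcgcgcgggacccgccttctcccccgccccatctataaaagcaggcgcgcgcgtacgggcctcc
Irf4, chr13:30748983-30749232: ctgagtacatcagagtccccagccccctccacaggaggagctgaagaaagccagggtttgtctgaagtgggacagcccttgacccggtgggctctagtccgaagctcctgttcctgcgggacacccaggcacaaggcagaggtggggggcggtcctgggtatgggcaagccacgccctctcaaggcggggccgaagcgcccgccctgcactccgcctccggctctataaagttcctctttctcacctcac
Irf1, chr11:53769764-53770013: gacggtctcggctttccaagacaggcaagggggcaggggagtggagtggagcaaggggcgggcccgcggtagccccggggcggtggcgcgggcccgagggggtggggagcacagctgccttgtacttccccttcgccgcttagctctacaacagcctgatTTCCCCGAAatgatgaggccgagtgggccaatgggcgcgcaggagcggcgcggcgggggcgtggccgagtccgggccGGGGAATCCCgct
Irf2, chr8:46739495-46739744: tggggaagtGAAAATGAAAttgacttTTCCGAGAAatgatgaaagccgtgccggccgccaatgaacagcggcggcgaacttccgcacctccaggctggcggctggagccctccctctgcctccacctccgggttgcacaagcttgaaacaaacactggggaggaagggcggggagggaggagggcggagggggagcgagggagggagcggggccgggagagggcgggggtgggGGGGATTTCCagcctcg

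In Irf8 the 2 GAS matches, TTCTCGGAA and TTCAGAGAA, start 171 and 153 bases before the start site. The Irf1 window holds the GAS match TTCCCCGAA from base 90 to base 82 before the start and the NF-kappaB match GGGGAATCCC from base 13 to base 4. The Irf2 window holds the ISRE match GAAAATGAAA, the GAS match TTCCGAGAA and the NF-kappaB match GGGGATTTCC. The Irf4 window holds 0 matches to these 3 motifs, and so do all windows of Irf3, Irf5, Irf7 and Irf9. Among 32851 promoter windows of the same length, 7.02% held a GAS, 2.98% an ISRE and 7.25% an NF-kappaB match. An AP-1 match (TGANTCA) was found in 6.75% of windows and in 0 of the 11 member windows. An NFAT match (GGAAAA) was found in 20.4% of windows, and among the members in those of Irf2, where it overlaps the GAS, and Irf9. A match is a description of the letters and not a site shown to be bound.

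**Figure D1:**
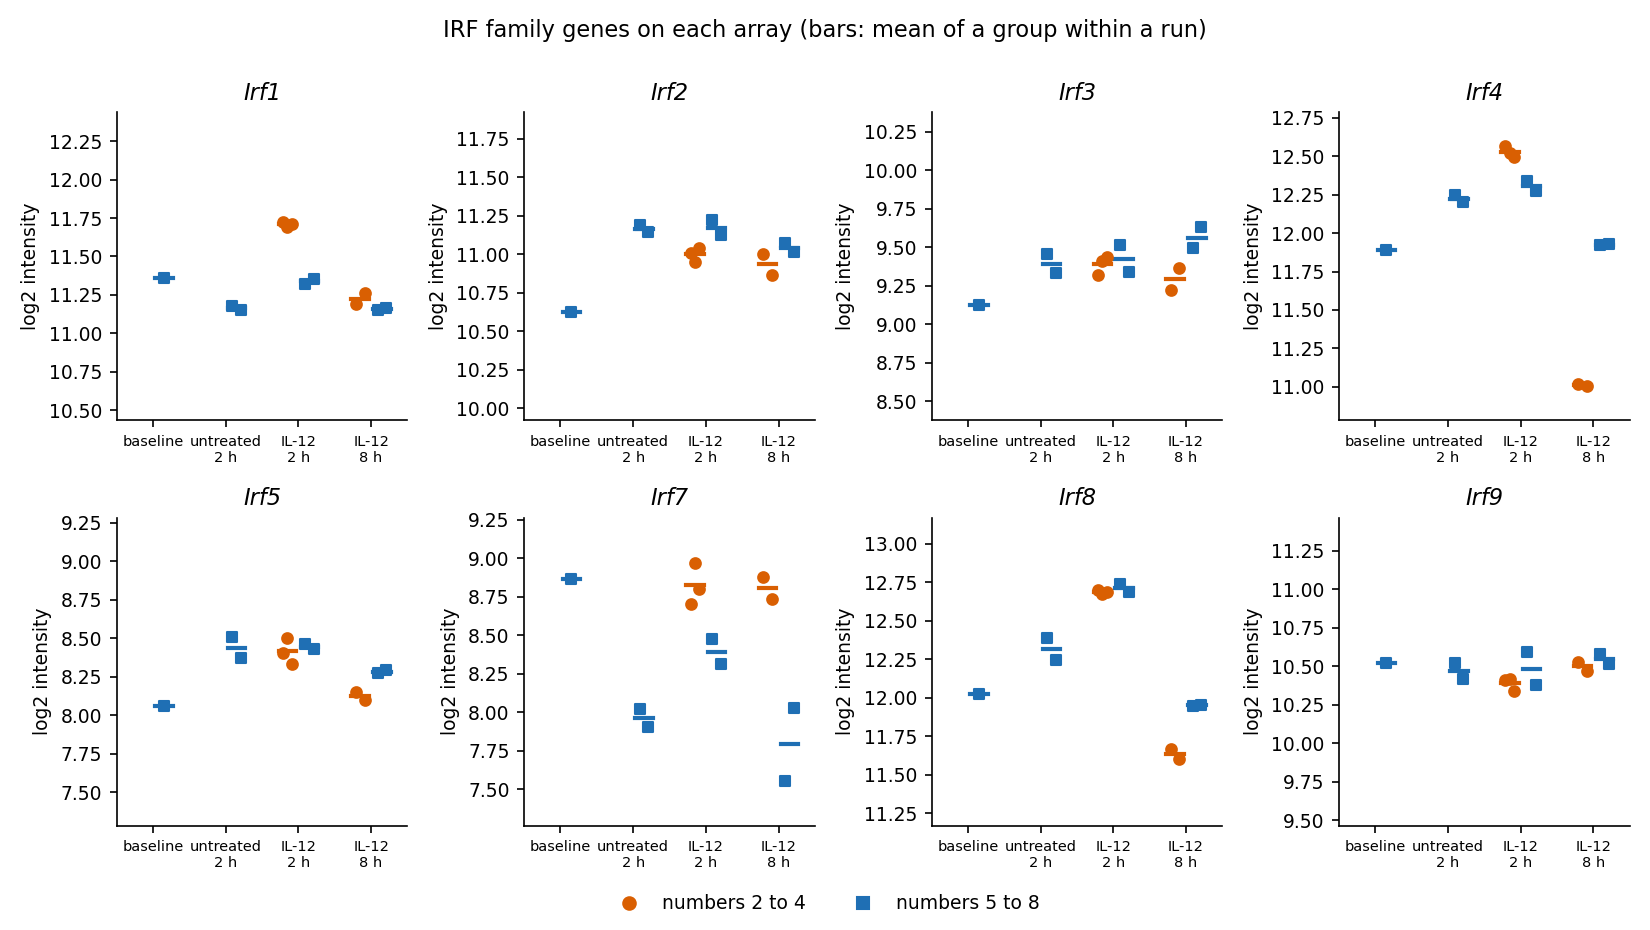
Log2 intensity of the 8 IRF genes (y axis, 1 panel per gene) in the baseline, untreated 2 h, IL-12 2 h and IL-12 8 h groups (x axis). Each point is 1 array, its shape gives the run of numbers, and bars are means of a group within a run. Irf4 and Irf8 are lower on all 4 IL-12 8 h arrays than on all 5 IL-12 2 h arrays. Irf7 separates mainly by run, except that the baseline array, numbered 5, lies among the arrays numbered 2 to 4 (8.87).

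All 8 genes gave more signal than the array median on all 12 arrays. Irf8 (log2 intensity 11.60 to 12.74) and Irf4 (11.01 to 12.56) reached the 99.3 and 99th percentile of all genes on their brightest arrays. Irf1 lay between the 93.7 and 96.8 percentile, Irf2 between 89.8 and 94.1, Irf9 between 86.7 and 89.1, and Irf3 between 72.1 and 78.1. The dimmest were Irf5 (58.9 to 64.2) and Irf7 (52.3 to 70.1). Percentiles place each probe set among all probe sets of its array and do not rank the amounts of different mRNAs, since probes differ in brightness. Across the 12 arrays Irf4 ranged over 1.55 log2 units, Irf7 over 1.42 and Irf8 over 1.14, while Irf9 ranged over 0.25.

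The family's main change was a fall between 2 h and 8 h of IL-12. In this comparison 4 of the 8 members were lower (Irf1, Irf4, Irf5 and Irf8) and 0 were higher, against 6.36% of all genes lower, 6.27% higher and 12.6% called in either direction. The same 4 genes were those whose 2 groups did not overlap over all arrays, against 8.21% of all genes. The median change of the 8 members was a log2 of -0.26, against -0.01 over all genes. With IL-12 for 2 h against untreated cells, which asks for the effect of IL-12 at a matched time, 0 of 8 members passed limma's adjusted threshold, against 0.0709% of all genes. At an unadjusted p under 0.05, 2 members were higher (Irf1 and Irf8) and 0 were lower, against 539 higher and 432 lower among all 19752 genes, and limma with a trended and robust variance called 1, Irf8. The median of the members was 0.18, against -0.00 over all genes. With IL-12 for 8 h against untreated 2 h cells 1 member was called, Irf8, which was lower, against 2.13% of all genes lower and 3.16% called in either direction. The median was -0.10, against -0.01 over all genes. Groups did not overlap for 4 members at 2 h against untreated (Irf1, Irf4, Irf7 and Irf8, all higher) and for 4 at 8 h against untreated (Irf2, Irf4, Irf5 and Irf8, all lower), against 11.9% and 23.7% of all genes. The comparisons share the IL-12 and untreated arrays, so their values are not independent of one another.

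**Figure D2:**
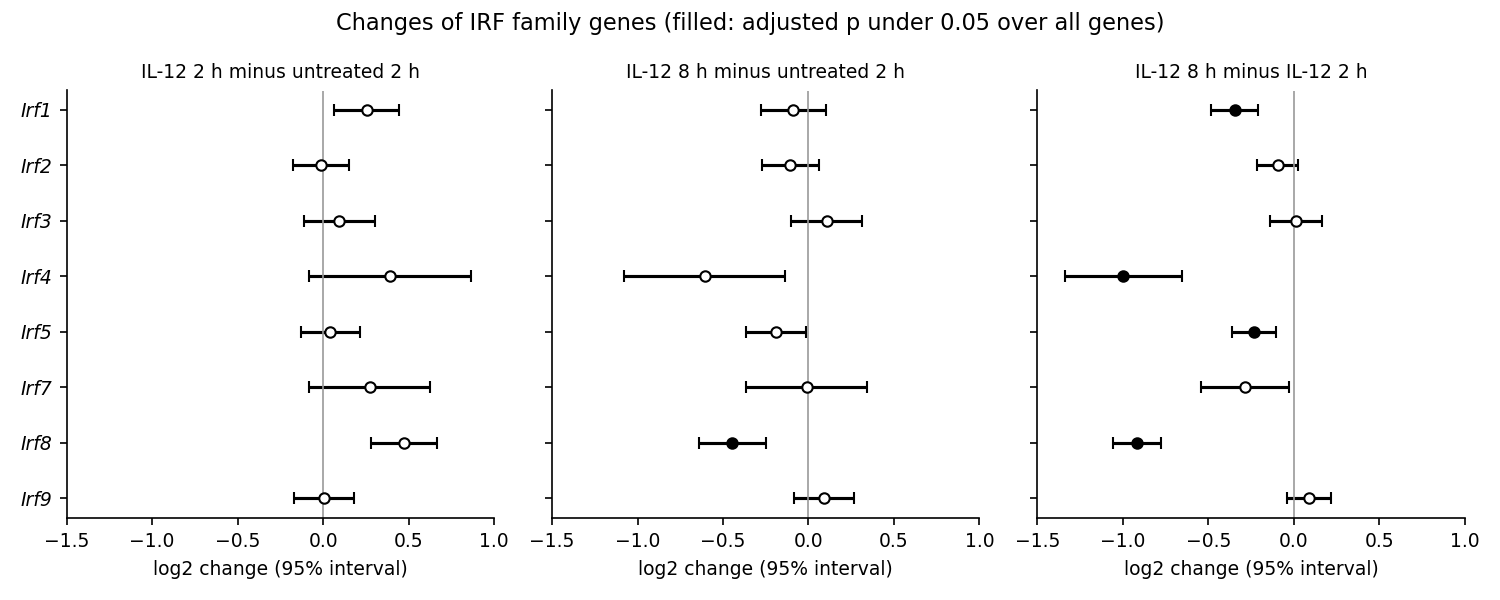
Log2 change (x axis) of each IRF gene (y axis) in the 3 comparisons among IL-12 and untreated arrays, 1 panel each, fitted with limma. Points are fitted changes, bars are 95% confidence intervals, and filled points have an adjusted p under 0.05. Irf8 changes most clearly between IL-12 8 h and IL-12 2 h, at -0.92.

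Irf8, a factor best known from dendritic cells, monocytes and B cells that is also induced in activated T cells, gave the clearest change of the family. Its log2 intensity was 12.02 on the baseline array and 12.39 and 12.24 on the untreated arrays. With IL-12 for 2 h it was 12.70, 12.67 and 12.69 on arrays 2 to 4 and 12.74 and 12.68 on arrays 5 and 6. With IL-12 for 8 h it was 11.67 and 11.60 on arrays 2 and 3 and 11.95 and 11.95 on arrays 5 and 6. All 5 arrays at 2 h therefore lay above both untreated arrays, and all 4 arrays at 8 h lay below them and below the baseline array. Irf8 fell 1.89-fold from 2 h to 8 h (log2 -0.92 ± 0.07 SE, limma adjusted p = 9.59e-07). The change was -1.05 ± 0.07 among arrays 2 to 4 (adjusted p = 7.34e-07) and -0.76 ± 0.08 among arrays 5 and 6 (adjusted p = 8.21e-05), and the difference between the runs missed the threshold (-0.29 ± 0.10, adjusted p = 0.191). Its call held under all 28 alternatives, of which those that leave out or move the baseline array cannot change this comparison.

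Against untreated cells Irf8 was 1.39-fold higher at 2 h (log2 0.47 ± 0.09, 95% interval 0.28 to 0.67), which missed the threshold after adjustment (limma adjusted p = 0.13). At 8 h it was 1.36-fold lower than in untreated cells (log2 -0.45 ± 0.09, adjusted p = 0.0147). Among arrays 5 to 8 alone the difference of means from untreated was 0.39 at 2 h and -0.37 at 8 h, so Irf8 lay above the untreated level at the early time and below it at the late time. The fall below untreated cells lost its call without untreated array 7 (adjusted p = 0.156), in arrays 5 to 8 alone (0.121), in a fit of the 2 groups alone (0.0825) and once macrophage markers were a covariate (-0.36, adjusted p = 0.282).

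Because Irf8 is abundant in B cells and myeloid cells, their markers are given beside it. The mean log2 intensity of 13 B cell markers was 6.66 to 6.95 with IL-12 for 2 h and 6.62 to 6.85 for 8 h, and 1 of them, Ebf1, was lower at 8 h. The mean of 14 macrophage and monocyte markers was 6.58 to 6.93 at 2 h and 6.50 to 6.87 at 8 h, with 0 called. The mean of 15 dendritic cell markers was 7.70 to 7.82 at 2 h and 7.65 to 7.76 at 8 h, with Tcf4 and H2-Ab1 lower. These ranges pool both runs. Among numbers 2 to 4 each of these means was lower at 8 h, without overlap. The B cell mean was 6.88 to 6.95 at 2 h and 6.81 to 6.85 at 8 h. For macrophages and monocytes it was 6.58 to 6.61 and 6.50 to 6.52, with 12 of 14 markers lower and 1 called. For dendritic cells it was 7.73 to 7.82 and 7.65 to 7.67. In the other run the ranges of each mean overlapped between the times. The mean of the 9 CD4 T cell markers was higher at 8 h in both runs, without overlap. It was 11.69 to 11.75 at 2 h and 11.84 to 11.85 at 8 h among numbers 2 to 4. For numbers 5 and 6 it was 11.65 to 11.72 and 11.80 to 11.81. Over both runs 3 of the 9 were called higher at 8 h and 0 lower, against 6.27% and 6.36% of all genes. With macrophage markers in the model the change of Irf8 from 2 h to 8 h was -0.88 ± 0.08, and with the B cell marker mean -0.89 ± 0.09.

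Irf4, which antigen receptor strength sets in T cells and which works with Batf at joint AP-1 and IRF sites, fell by more in one run of numbers than in the other. On the baseline array it gave 11.89 and on the untreated arrays 12.22 ± 0.03 (mean ± SD, n = 2). On the IL-12 2 h arrays it gave 12.56, 12.52 and 12.50 for numbers 2 to 4 and 12.34 and 12.28 for numbers 5 and 6. On the IL-12 8 h arrays it gave 11.02 and 11.01 for numbers 2 and 3 and 11.92 and 11.93 for numbers 5 and 6. All 8 h arrays lay below all others except the baseline array, which lay between the 8 h arrays of the 2 runs. Within numbers 2 to 4 Irf4 fell 2.85-fold from 2 h to 8 h (log2 -1.51 ± 0.07, limma adjusted p = 4.81e-08). Within numbers 5 and 6 it fell 1.30-fold (log2 -0.38 ± 0.08, adjusted p = 0.0103).

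The difference between the 2 runs in the change of Irf4 was a log2 of -1.13 ± 0.10 (limma adjusted p = 0.000137). Irf4 was the 1 member of 8 for which this difference was called, against 0.987% of all genes called in that direction, 0.972% in the other and 1.96% in either. By title number the 8 h minus 2 h differences of Irf4 were -1.55 and -1.51 for numbers 2 and 3, and -0.41 and -0.35 for numbers 5 and 6. Over both runs the fall was 2.00-fold (log2 -0.999 ± 0.16, adjusted p = 0.000937). At 2 h, by contrast, Irf4 differed from untreated cells by 0.08 among arrays 5 to 8 and by 0.39 ± 0.22 in the full model (adjusted p = 0.999). At 8 h its difference from untreated cells was -0.61 ± 0.22 (adjusted p = 0.186) in the full model and -0.30 among arrays 5 to 8, where a fit with separate means for each group and run, chosen after seeing the data, gave an adjusted p of 0.037. In a fit of arrays 5 to 8 alone, which has fewer samples, the fall of Irf4 from 2 h to 8 h had an adjusted p of 0.0767.

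**Figure D3:**
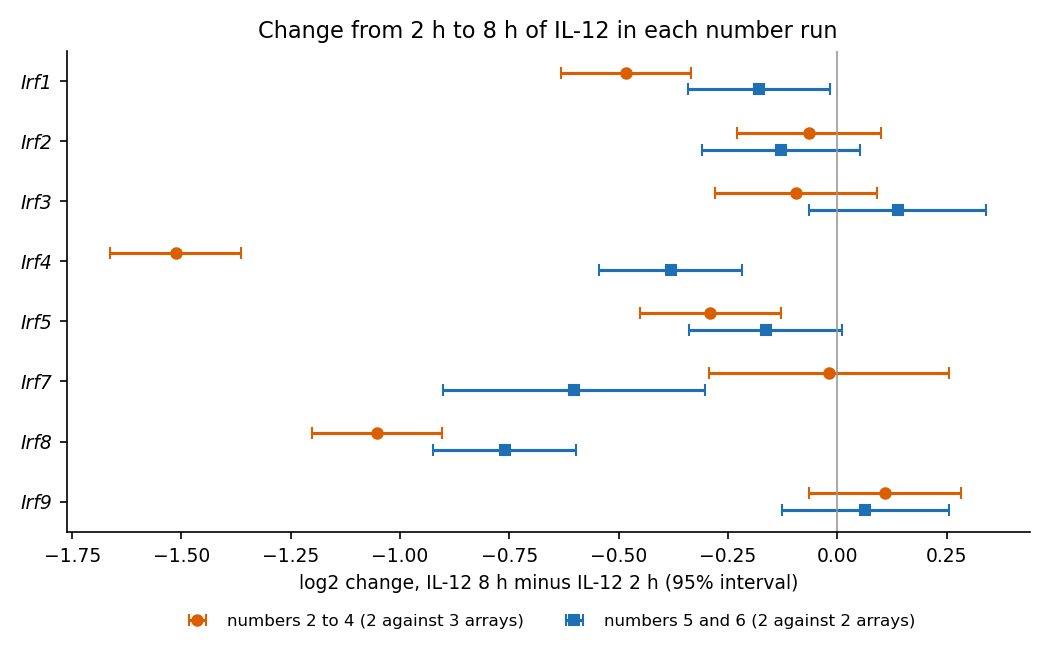
Fitted change from IL-12 2 h to IL-12 8 h (x axis, log2 units) of each IRF gene (y axis), with circles for arrays numbered 2 to 4, squares for arrays numbered 5 and 6 and bars for the 95% confidence interval. Irf4 lies at -1.51 in one run and -0.38 in the other, Irf8 lies at -1.05 and -0.76, and Irf7 at -0.02 and -0.60.

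Irf1, the early interferon-gamma and STAT target of the family, was highest on the 2 h arrays numbered 2 to 4. Its log2 intensity was 11.36 on the baseline array, 11.18 and 11.15 on the untreated arrays, 11.72, 11.69 and 11.71 on IL-12 2 h arrays 2 to 4, and 11.32 and 11.36 on arrays 5 and 6. At 8 h it was 11.19 and 11.26 on arrays 2 and 3 and 11.15 and 11.16 on arrays 5 and 6. Every 2 h array was thus above both untreated arrays and every 8 h array, while the 8 h and untreated arrays overlapped. Irf1 fell 1.27-fold from 2 h to 8 h (log2 -0.35 ± 0.06, limma adjusted p = 0.00276). The fall was called among numbers 2 to 4 (-0.48 ± 0.07, adjusted p = 0.00047) and not among numbers 5 and 6 (-0.18 ± 0.08, adjusted p = 0.199), and the difference between the runs was -0.30 ± 0.10 (adjusted p = 0.172). Against untreated cells Irf1 was 0.26 ± 0.09 higher on the log2 scale at 2 h (adjusted p = 0.863) and 0.17 higher among arrays 5 to 8.

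Irf1 has a second, dimmer probe set, and the pair did not behave alike. That probe set gave 7.67 and 7.44 on the untreated arrays, 7.61 to 8.24 on the IL-12 2 h arrays and 7.74 to 8.01 on the IL-12 8 h arrays. These groups overlapped, and its change from 2 h to 8 h was -0.01 ± 0.09 (limma adjusted p = 0.987 over all probe sets). With the mean of both probe sets standing for the gene, the change of Irf1 from 2 h to 8 h was -0.18 and no longer called (adjusted p = 0.113).

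Irf5, a latent factor of Toll-like receptor signalling known mainly from myeloid and B cells, fell slightly. It gave 8.06 on the baseline array, 8.51 and 8.37 on the untreated arrays, 8.41, 8.50 and 8.33 on IL-12 2 h arrays 2 to 4 and 8.46 and 8.43 on arrays 5 and 6. The 8 h arrays gave 8.15, 8.10, 8.27 and 8.29, which all lay below the untreated and 2 h arrays. The fall from 2 h to 8 h was 1.18-fold (log2 -0.23 ± 0.06, limma adjusted p = 0.0179). It was called among numbers 2 to 4 (-0.29 ± 0.07, adjusted p = 0.0214) and not among numbers 5 and 6 (-0.16 ± 0.08, adjusted p = 0.29). The call was lost with the title number as a replicate block (-0.25, adjusted p = 0.077) and in 6 other settings, among them the macrophage and B cell marker covariates (-0.20 ± 0.07 and -0.19 ± 0.08, adjusted p = 0.129 and 0.225) and leaving out IL-12 8 h array 2 or 3 (0.0579 and 0.0819).

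Counted within runs, 4 members fell from 2 h to 8 h among numbers 2 to 4 (Irf1, Irf4, Irf5 and Irf8, against 6.11% of all genes lower, 6.52% higher and 12.6% either). Among numbers 5 and 6, 3 members fell (Irf4, Irf7 and Irf8, against 4.17% of all genes lower, 2.29% higher and 6.47% either). No member rose in either run. A fall in both runs was therefore called for Irf4 and Irf8.

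Irf7, the factor that amplifies type I interferon production and is itself an interferon-stimulated gene, varied with the run of numbers. It gave 8.87 on the baseline array and 8.02 and 7.90 on the untreated arrays. At 2 h it gave 8.70, 8.97 and 8.80 on arrays 2 to 4 and 8.48 and 8.31 on arrays 5 and 6, and at 8 h 8.88 and 8.73 on arrays 2 and 3 but 7.56 and 8.03 on arrays 5 and 6. Every IL-12 array numbered 2 to 4 was above every IL-12 and untreated array numbered 5 to 8. The run term was 1.62-fold (log2 0.70 ± 0.12, limma adjusted p = 0.000873). Together with Irf1 (log2 0.23 ± 0.06, adjusted p = 0.017) this made 2 of 8 members higher in numbers 2 to 4 and 0 lower, against 11.8% of all genes higher. Irf1 lost that call without IL-12 2 h array 5 or without array 6.

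From 2 h to 8 h the difference in Irf7 was -0.28 ± 0.12 in the full model (limma adjusted p = 0.158), which missed the threshold. Among numbers 2 to 4 its arrays overlapped between the times, with a fitted change of -0.02 ± 0.13. Among numbers 5 and 6 Irf7 fell 1.52-fold (log2 -0.60 ± 0.14, adjusted p = 0.0229), by 0.92 for number 5 and 0.28 for number 6. In a fit of arrays 5 to 8 alone, which has fewer samples, the same change had an adjusted p of 0.0836. The difference between the runs was 0.58 ± 0.19 (adjusted p = 0.155), and without IL-12 8 h array 6 it was 0.82 (adjusted p = 0.0411).

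Irf2, Irf3 and Irf9, which most cells make constitutively, gave no called change in any comparison of IL-12 arrays. Irf2, the repressor that competes with Irf1, gave 10.63 on the baseline array, 11.19 and 11.14 on the untreated arrays, 10.95 to 11.22 at 2 h and 10.86 to 11.07 at 8 h. Irf3, the latent factor downstream of the kinase Tbk1, gave 9.13 on the baseline array, 9.46 and 9.33 on the untreated arrays, 9.32 to 9.51 at 2 h and 9.22 to 9.63 at 8 h. Irf9, the DNA-binding subunit of ISGF3, gave 10.52 on the baseline array, 10.52 and 10.42 on the untreated arrays, 10.34 to 10.59 at 2 h and 10.47 to 10.58 at 8 h. The IL-12 groups overlapped for all 3 genes. Their changes from 2 h to 8 h were -0.09 ± 0.06 for Irf2 (95% interval -0.21 to 0.03), 0.01 ± 0.07 for Irf3 (-0.14 to 0.16) and 0.09 ± 0.06 for Irf9 (-0.04 to 0.22). These intervals leave out changes of the size seen for Irf4 and Irf8.

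The comparison of untreated 2 h cells with the single baseline array gave 2 members higher and 1 lower, against 6.28% and 3.96% of all genes and 10.2% in either direction. The baseline array adds nothing to the spread in this comparison, which comes from the groups with more than 1 array. Irf2 was 1.45-fold higher in untreated cells (log2 0.54 ± 0.10, limma adjusted p = 0.00352), with the baseline array the lowest of all 12. Irf5 was 1.30-fold higher (log2 0.38 ± 0.11, adjusted p = 0.0363), and here too the baseline array was the lowest. Irf7 was 1.87-fold lower (log2 -0.90 ± 0.22, adjusted p = 0.0164). The baseline array carries the number 5, and when it was placed in the run of numbers 2 to 4 none of the 3 was called and the difference of Irf7 shrank to -0.21 (adjusted p = 0.886). Irf5 also lost its call without untreated array 7 (0.149) or IL-12 2 h array 2 or 4 (0.0557 and 0.0508), and Irf7 without untreated array 8 (0.0673). Markers of other cells differed in this comparison as well. Of the macrophage and monocyte markers 2 of 14 were higher in untreated cells, Lyz2 by 2.13 ± 0.32 (adjusted p = 0.0007) and Cd68 by 0.74 ± 0.12 (adjusted p = 0.00167), and of the NK cell markers 2 of 7 were higher. Of the B cell markers 3 of 13 were lower, among them Ms4a1 (-1.44 ± 0.12, adjusted p = 7.43e-06) and Cd22 (-0.81 ± 0.14, adjusted p = 0.00167). The markers named here differed the other way in numbers 2 to 4 against numbers 5 to 8. That run term was -1.96 for Lyz2, -0.83 for Cd68, 1.03 for Ms4a1 and 0.31 for Cd22. A difference between runs and an effect of the culture cannot be told apart with this 1 baseline array. With macrophage markers as a covariate the difference of untreated cells from the baseline array was 0.55 ± 0.18 for Irf2 (adjusted p = 0.217). It was 0.23 ± 0.18 for Irf5 (adjusted p = 0.635) and -0.54 ± 0.36 for Irf7, which was not called either. With B cell markers as a covariate it was 0.57 ± 0.24 for Irf2, 0.58 ± 0.25 for Irf5 and -1.22 ± 0.52 for Irf7, and none of these 3 was called.

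Genes taken as upstream of the family were counted by lists. Of 17 interferon receptor and JAK-STAT genes, 6 fell from 2 h to 8 h and 0 rose. The median was -0.17, and 6.36% of all genes fell and 6.27% rose. Among numbers 2 to 4, 5 fell, and among numbers 5 and 6, 2 fell (6.11% and 4.17% of all genes). Jak2, a kinase of the IL-12 and interferon-gamma receptors, fell 1.50-fold (log2 -0.59 ± 0.09, limma adjusted p = 0.000493), and Ifngr2, a chain of the interferon-gamma receptor, fell 1.41-fold (log2 -0.49 ± 0.09, adjusted p = 0.00203). Ifng itself, which encodes interferon-gamma, was 3.83-fold higher with IL-12 at 2 h than in untreated cells (log2 1.94 ± 0.20, adjusted p = 0.0025), and 2.62-fold higher at 8 h (log2 1.39 ± 0.20, adjusted p = 0.00125). Its course from 2 h to 8 h differed between the runs (-0.95 ± 0.12, adjusted p = 0.00179). Ifng fell among numbers 2 to 4 (-0.98 ± 0.08, adjusted p = 6.48e-06), and among numbers 5 and 6 its change was -0.03 ± 0.09 (adjusted p = 0.91). The fitted differences of Ifng from untreated cells take the run difference as equal at both times, which did not hold. They therefore draw on both runs, although the untreated arrays lie in numbers 5 to 8 alone. For Irf1 and Irf8, both known interferon-gamma targets, the differences from untreated cells at 8 h were -0.09 ± 0.09 (adjusted p = 0.741) and -0.45 ± 0.09.

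Among 14 genes listed as antigen receptor and NF-kappaB inputs of Irf4, a list that also holds Myc, 8 fell from 2 h to 8 h and 0 rose. The median was -0.28, and 6.36% of all genes fell and 6.27% rose. Rel, the NF-kappaB subunit that drives Irf4 in lymphocytes, fell 2.15-fold (log2 -1.10 ± 0.08, limma adjusted p = 9.59e-07). Malt1, which carries the receptor signal to NF-kappaB, changed by -0.67 ± 0.07 (adjusted p = 2.12e-05), and Relb by -0.67 ± 0.09 (adjusted p = 0.000173). The list fell in both runs, with 7 genes lower among numbers 2 to 4 and 5 among numbers 5 and 6. Of all genes 6.11% and 4.17% were lower. Myc and Nfkb2 were the genes of this list whose change differed between the runs, in the direction of Irf4 (-0.76 ± 0.11 and -0.71 ± 0.11, adjusted p = 0.00479 and 0.00628). Against the baseline array 8 of the 14 genes were higher in untreated cells, as were 6.28% of all genes. Rel was higher by a log2 of 1.24 ± 0.14 (adjusted p = 0.000111). In numbers 2 to 4 against numbers 5 to 8, 7 genes of the list were lower and 0 higher, against 12.5% and 11.8% of all genes. With a single baseline array, a difference between runs and an effect of the culture cannot be told apart here.

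Of 16 sensor, adaptor and kinase genes upstream of Irf3, Irf5 and Irf7, 4 rose and 3 fell from 2 h to 8 h. The median was 0.00, and 6.27% of all genes rose and 6.36% fell. Ifih1, the RNA sensor MDA5, fell 1.65-fold (log2 -0.72 ± 0.10, limma adjusted p = 0.000226), while Tlr7, an RNA-sensing Toll-like receptor, rose by 0.34 ± 0.07 (adjusted p = 0.00582). Myd88, the adaptor through which Toll-like receptors reach Irf5 and Irf7, was higher than in untreated cells at 2 h (log2 0.60 ± 0.09, adjusted p = 0.0146).

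Of 17 DNA-binding partners of IRF proteins, 5 fell from 2 h to 8 h and 0 rose, with a median of -0.17. Of all genes 6.36% fell and 6.27% rose. Among numbers 2 to 4, 7 fell and 0 rose (median -0.23), against 6.11% and 6.52% of all genes. Among numbers 5 and 6, 1 fell and 1 rose (median -0.06), against 4.17% and 2.29%. Junb (log2 -0.44 ± 0.08, limma adjusted p = 0.00369) and Batf3 (-0.38 ± 0.10, adjusted p = 0.0186), AP-1 proteins that pair with Irf4 or Irf8, were among the 5 that fell over both runs. Jun was higher than in untreated cells at 2 h (0.92 ± 0.11, adjusted p = 0.00362) and at 8 h (0.64 ± 0.11, adjusted p = 0.00356). Batf, the main partner of Irf4 in T cells, differed between the runs. It fell among numbers 2 to 4 (-0.77 ± 0.08, adjusted p = 4.16e-05) and not among numbers 5 and 6 (0.16 ± 0.09, adjusted p = 0.353), and the difference was -0.93 ± 0.12 (adjusted p = 0.00191). Of 12 regulators and corepressors of IRF proteins, 2 rose and 3 fell from 2 h to 8 h. Tnfaip3, the NF-kappaB feedback inhibitor A20, fell 2.08-fold (log2 -1.06 ± 0.07, adjusted p = 7.21e-07), and Swap70, a relative of the Irf4-binding protein Def6, fell by 0.44 ± 0.07 on the log2 scale (adjusted p = 0.00114).

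Genes known to depend on Irf4 in activated T cells fell from 2 h to 8 h, 15 of 24 of them, and 1 rose, with a median of -0.37. Of all genes 6.36% fell and 6.27% rose. Among numbers 2 to 4, 17 fell and 1 rose (median -0.55), against 6.11% and 6.52% of all genes. Among numbers 5 and 6, 9 fell and 0 rose (median -0.18), against 4.17% and 2.29%. The T cell growth factor gene Il2 fell 4.29-fold (log2 -2.10 ± 0.20, limma adjusted p = 1.32e-05), the Th2 cytokine gene Il4 changed by -1.48 ± 0.14 (adjusted p = 1.42e-05) and the chemokine receptor gene Ccr8 by -1.10 ± 0.09 (adjusted p = 3.82e-06). The change differed between the runs for 9 of the 24, against 1.96% of all genes. Of these, 8 fell by more, or fell only, among numbers 2 to 4, as Irf4 did. Il13 gave the smallest p among them, at -1.38 ± 0.07 among numbers 2 to 4 and -0.21 ± 0.08 among numbers 5 and 6 (difference -1.17 ± 0.11, adjusted p = 0.000177). Ahr gave -1.52 ± 0.08 and -0.43 ± 0.08 (difference -1.10 ± 0.11, adjusted p = 0.000374). Il21, the cytokine of follicular helper cells, went the other way, with -0.44 ± 0.08 and -1.28 ± 0.08.

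**Figure D4:**
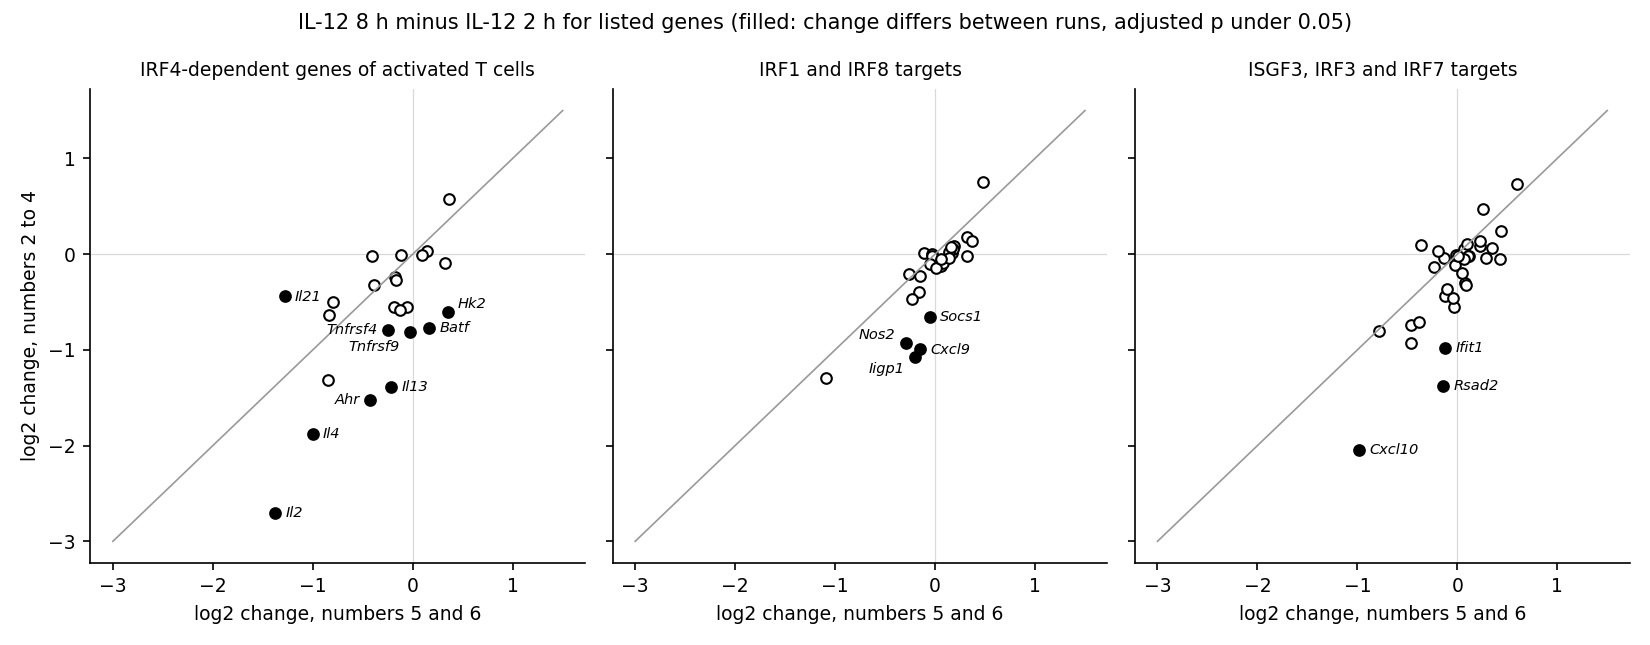
Change from IL-12 2 h to IL-12 8 h of listed target genes among arrays numbered 5 and 6 (x axis, log2 units) and among arrays numbered 2 to 4 (y axis, log2 units), in 1 panel per list. Each point is 1 gene, the diagonal marks equal change, and filled, named points differ between the runs at a limma adjusted p under 0.05. Of the Irf4-dependent genes 8 lie below the diagonal with such a difference and 1, Il21, lies above it.

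Genes known as targets of Irf1 and Irf8 were mixed between 2 h and 8 h, with 3 of 27 higher, 8 lower and a median of -0.03. Of all genes 6.27% were higher and 6.36% lower. Cd274, which encodes the inhibitory ligand PD-L1, fell 2.29-fold (log2 -1.20 ± 0.06, limma adjusted p = 5.39e-08), and Nos2, the inducible nitric oxide synthase, changed by -0.64 ± 0.11 (adjusted p = 0.00169). Casp1, the inflammatory caspase, rose by 0.63 ± 0.11 (adjusted p = 0.00141). Of the 27, 1 rose and 7 fell among numbers 2 to 4 (median -0.05), against 6.52% and 6.11% of all genes. Among numbers 5 and 6 alone, 1 of the 27 rose and 1 fell (median 0.00), against 2.29% and 4.17% of all genes. Cd274 was lower than in untreated cells at 8 h as well (-0.97 ± 0.08, adjusted p = 2.17e-05).

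Of 34 targets of ISGF3, Irf3 and Irf7, 4 rose and 10 fell from 2 h to 8 h, with a median of -0.08. Of all genes 6.27% rose and 6.36% fell. Cxcl10, a chemokine of interferon responses, fell 2.95-fold (log2 -1.56 ± 0.16, limma adjusted p = 2.97e-05). These genes moved with the run in the direction of Irf7: 27 of 34 were higher and 1 lower in numbers 2 to 4, with a median of 0.46, against 11.8% of all genes higher and a median of 0.04. Xaf1 was higher by 0.86 ± 0.06 (adjusted p = 1.77e-06), Ifi27 by 0.79 ± 0.07 (adjusted p = 5.23e-06) and the RNA helicase gene Dhx58, of the sensor list, by 0.88 ± 0.07 (adjusted p = 2.91e-06). On the same arrays 7 of 14 macrophage and monocyte markers and 6 of 7 NK cell markers were lower, against 12.5% of all genes. Of 13 B cell markers 6 were higher, against 11.8%. The mean of the NK cell markers was 5.38 to 5.63 on arrays numbered 2 to 4 and 5.84 to 6.15 on IL-12 and untreated arrays numbered 5 to 8. The part of these cells in the values of Irf7 and of the targets was not tested. Some genes stand on more than 1 of the lists, among them Batf, Ifih1, Socs1 and Stat2.

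The genes whose pattern over the 12 arrays, with the run term subtracted, lay closest to each member were taken by Pearson's r among all genes. For Irf8 they were Lif (0.978) and Ddr1 (0.978), and for Irf4 they were Traf4 (0.982) and Il13 (0.979). Lif, a cytokine gene, was 0.56 higher than in untreated cells at 2 h and 1.04 lower at 8 h on the log2 scale, the order shown by Irf8. For Irf1 the closest were Nkrf (0.986) and Snhg16 (0.962), for Irf5 Aff1 (0.975) and Lrch3 (0.970), for Irf2 Ube2j1 (0.968) and Specc1l (0.960), and for Irf9 Ncoa6 (0.967) and Baz2a (0.957). Irf3 (Farp1 and Mllt6, both 0.938) and Irf7 (Pramel5, 0.944, and Phxr4, 0.909) had lower values. These are descriptions over arrays that share groups, and the highest r among 19752 genes is high by selection.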

How the data were processed

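The 12 RNA samples were each hybridised to an Affymetrix Mouse Gene 1.0 ST array. The deposited values are linear intensity, made with RMA and Affymetrix Power Tools per the submitters' processing notes. Tool versions, probe annotation and genome build were not given in the sources used here. Array medians were 160.6 to 167.3, and 0 value columns belonged to other samples. The number of arrays limits the precision.

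Intensities were log2-transformed and not normalized again. Probe sets with exactly 1 symbol (21425 of 24922) were used, and the brightest probe set stood for a gene. All 12 arrays entered a model with 4 group means and a run term (limma 3.58.1, R 4.3.3, lmFit and eBayes, 7 residual degrees of freedom). Within-run changes and the difference between runs come from a second limma model of the 9 IL-12 arrays with a mean for each time and run. Differences from untreated cells among arrays 5 to 8 are differences of means. Tests were two-sided, and a gene was called where p, adjusted by Benjamini-Hochberg for all 19752 genes, was under 0.05. The models were tested on simulated data.

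The members, lists and tests were chosen with earlier results of these data known. The text names all members, up to 3 genes per list and comparison with the smallest p, and the 2 genes most like each member. Il21 was named after its value was seen. The 14 lists held 241 genes, 212 of them measured. Numbers 2, 3, 5 and 6 occur at both IL-12 times, and deviations of same-numbered arrays from their group means correlated at 0.434, 0.350, 0.498 and 0.337 (-0.247 and 0.0255 once run means were removed). For numbers 2, 3 and 6 an array of another number correlated more highly (0.504, 0.525 and 0.407), and for number 5 it did not (0.371). These values do not show that the numbers pair the samples. A fit with the title number as a block is given as an alternative only. Alternatives covered the run, the baseline array, normalization, pseudocount, variance model, dim genes, probe set choice, marker covariates and leaving out each array. RefSeq (GRCm38.p6) matched 8 of 8 members with 11 promoter windows.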

Additional observations from a re-analysis of the deposited data

Results flagged for a closer look

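The change of Irf4 from 2 h to 8 h of IL-12 differed between arrays numbered 2 to 4 and arrays numbered 5 and 6 by a log2 of -1.13 (limma adjusted p = 0.000137), and it was the only member of the family to pass a test of such a difference. Leaving out any IL-12 array in turn kept this difference between -1.16 and -1.10. What the title numbers stand for is not given in the labels. Across 16 pairs of a member and a group of 4 or 5 arrays, no single array stood far from the others of its group. The rule compares the gap of 1 array with the range of its group, and each group pools both runs. It therefore cannot flag a split by run, such as that of Irf4 at 8 h (11.02 and 11.01 against 11.92 and 11.93).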

How the results depend on the processing

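Of 1048 member values recomputed under alternatives, 1008 kept their side of the threshold, 37 calls were lost, 3 were gained and 0 called values reversed. The 1008 include values called neither in the main fit nor in the alternative. The baseline array has its own group mean. Leaving it out or moving it to the other run therefore repeats the main fit in comparisons among the other arrays, and these settings are counted too. Values that were not called changed sign 30 times. For IL-12 2 h against untreated, 0 members were called, and a trended and robust variance called 1 (Irf8). For IL-12 8 h against untreated, 1 was called, and 0 were in arrays 5 to 8 alone, in the 2 groups alone and with the macrophage marker covariate. Separate means for each group and run, chosen after seeing the data, called 2, and leaving out 1 array gave 0 to 1. For IL-12 8 h against 2 h, 4 were called, 1 in arrays 5 to 8 alone (fewer samples), and 3 to 4 without 1 array. For untreated against baseline, 3 were called, 0 with no run term, with the baseline array in the other run and with either marker covariate, 1 with the run as a random block, and 2 to 3 without 1 array. For the run 2 were called, and 1 to 2 without 1 array. For the difference between runs 1 was called, and 1 to 2 without 1 array. The cause was not tested for the rest. The replicate block, possible for the arrays that share a title number, called 3 members from 2 h to 8 h and changed no other call than that of Irf5. With 2 untreated arrays and 1 baseline array, comparisons with them rest on a spread taken mostly from the IL-12 arrays. The untreated arrays add to it, the baseline array does not, and limma draws it toward that of all genes.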

Other observations

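Over the 12 arrays with the run term subtracted, Irf4 and Irf8 had the closest patterns of any pair of members (Pearson r = 0.931), followed by Irf1 and Irf4 (0.895), Irf1 and Irf8 (0.862) and Irf5 and Irf8 (0.826). Irf4 and Irf9 had the lowest value (-0.54). These values describe arrays that share groups, and groups that differ raise them.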
